A study of Mus musculus with 6 samples.

Results

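Histone acetyltransferases were read in the medial prefrontal cortex, the frontal cortex whose output helps to hold back learned fear. The 10 genes, Kat2a, Kat2b, Kat5, Kat6a, Kat6b, Kat7, Kat8, Crebbp, Ep300 and Hat1, were chosen by name from 18193 genes with a probe set of their own, and every probe set annotated to exactly 1 of them was taken, 24 of 45101 on the array. A probe set is a group of short probes that reads 1 transcript region on the Affymetrix Mouse430_2 array. Tissue from both hemispheres was taken from 6 male 129S1/SvImJ mice, an inbred strain, at 8 to 10 weeks of age. All 6 were killed 2 h after fear extinction training, the repeated showing of a feared cue without its outcome. The control group (mice 1, 5 and 9) had the control diet, and the other group (mice 3, 7 and 11) a diet labelled ZnR and described as a zinc diet; the sources used here do not give its composition. There was 1 array per mouse, and no untrained mice were analysed here, so the values compare diets only among mice trained in extinction. The series title names histone deacetylase inhibition, and the comparison asks how transcripts of the opposing enzymes differed between the diets.

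Histone acetyltransferases move an acetyl group from acetyl-CoA to lysines of histone tails, which loosens the hold of histones on DNA and makes docking sites for proteins with bromodomains. Histone deacetylases take the group off again. In neurons, CBP, the protein of Crebbp, and its relative p300, the protein of Ep300, are recruited by the transcription factor CREB to genes that respond to activity, and acetylation of histones is known for its role in the formation and extinction of fear memory. Grouped below are the close relatives Kat2a and Kat2b, the pair Crebbp and Ep300, and the MYST enzymes Kat5, Kat6a, Kat6b, Kat7 and Kat8. Hat1 is taken by itself, and acetylates newly made histones before they are built into chromatin.

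No acetyltransferase transcript passed the test for a difference between the diets. Of the 24 probe sets, 17 passed the filter on low values and all 10 genes kept at least 1. None of the 17 had an adjusted p under 0.05 (limma, adjusted by Benjamini-Hochberg over the 25381 probe sets tested), where 1.47% of all probe sets tested did. The log2 differences, ZnR minus control, ran from -0.28 to 0.34, and the adjusted p-values from 0.13 upward. At an unadjusted p under 0.05 there were 3 of 17, all higher in ZnR mice (Kat5, Kat2b and Hat1), against 17% of all probe sets tested in either direction and 9.06% in that direction. All 3 ZnR mice lay above all 3 controls on 3 probe sets, those of Hat1, Kat5 and Crebbp described below, and all lay below on 0, against 13.1% and 10.6% of all probe sets tested. These shares are near the background and are not a result about the family.

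Each gene was represented by its kept probe set with the highest mean. On these, 7 of the 10 genes had a higher mean in ZnR mice and 3 a lower one, against 57.6% higher over all 11749 genes. The median difference was 0.10 log2 units, against 0.03 over all genes. The mean of the 10 genes in each mouse, after centring each gene on all 6 mice, was -0.08, -0.04 and -0.05 in control mice 1, 5 and 9 and 0.06, 0.05 and 0.05 in ZnR mice 3, 7 and 11. The mice of the diets did not overlap on this mean. Over all genes they did not overlap either, with -0.0228 to -0.0093 in controls and -0.0085 to 0.0325 in ZnR mice. Among the partner lists given below, subunits of the Kat5 complex (controls up to -0.031, ZnR from -0.0087) and Hat1 partners (up to -0.0054, from 0.062) did not overlap, and the others did. The lack of overlap is thus not particular to the 10 genes. The number of arrays limits what could be seen. The 95% intervals of the 10 differences reached 0.19 to 0.30 log2 units to either side, so that the furthest bounds were a 1.53-fold higher level (Kat2b) and a 1.21-fold lower one (Crebbp). Simulated arrays were drawn with the spread within diets that was estimated for each probe set. On these, 15 of 50 probe sets changed by 0.5 log2 units were recovered, and 40 of 50 changed by 1. Only 50 of 25381 probe sets were changed at each size. Recovery after adjustment depends on the share that is changed, so these counts are only a guide to the real arrays.

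**Figure D1:**
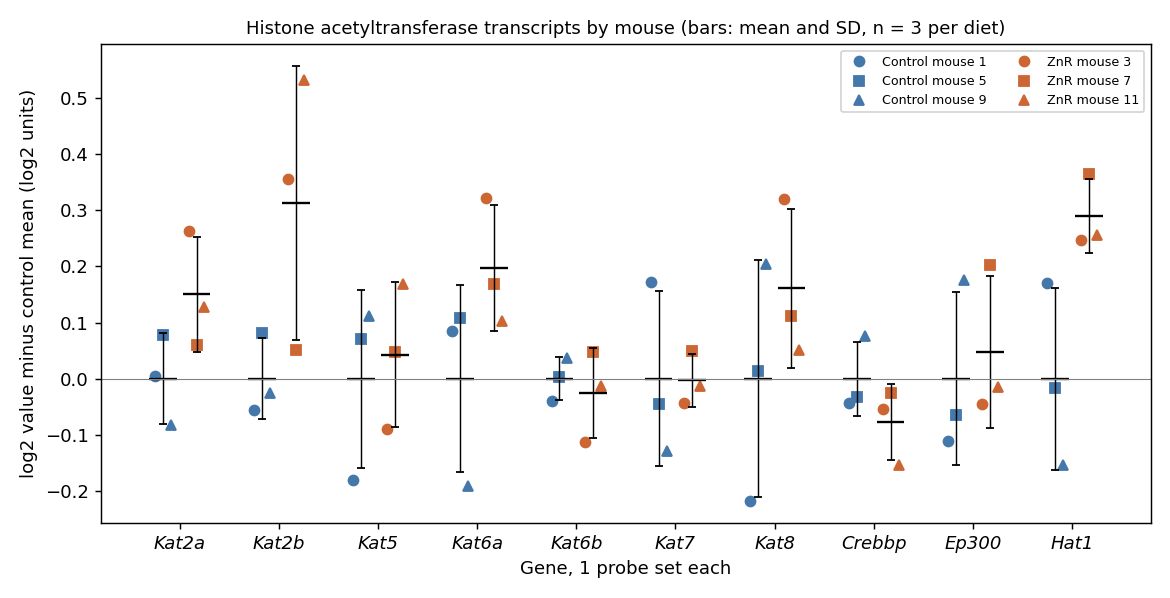
Log2 value of each of the 10 genes minus its mean in control mice (y axis, log2 units), 1 point per mouse with the shape only telling the mice of a diet apart, and bars for the mean and SD (n = 3 per diet). Hat1 is the only gene here whose ZnR mice all lie above the controls, and Kat2b has the largest difference among the probe sets shown, with ZnR mouse 7 among the controls.

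The arrays were alike in their medians, 4.46 to 4.52 log2 units, as the normalization makes them. Array control probe sets that read 18S ribosomal RNA were low on 2 arrays, control mouse 1 and ZnR mouse 3 (8.44 to 9.09 log2 units), against 10.9 to 12.4 on the other 4. The labels do not call this pair a batch, and differences are given below within the pair and between the other 4 mice. Markers of the tissue were checked in lists. All 6 listed general neuronal markers passed the filter, and none differed past the threshold. Of these, 5 had a lower mean in ZnR mice and 1 a higher one (median -0.16 log2 units). In ZnR mice, 5 of 6 markers of cortical excitatory neurons were called lower (limma adjusted p under 0.05), and all 6 had a lower mean (median -0.93 log2 units). Of 10 striatal markers 3 were called higher, and all 10 had a higher mean (median 0.59). For choroid plexus and ependyma 2 of 7 were called higher, and all 7 had a higher mean (median 1.01). Over all genes, 1.27% were called lower, 0.655% were called higher and 57.6% had a higher mean. Of 7 astrocyte markers 1 was called higher, and all 7 had a higher mean. Of 6 interneuron markers 1 was called lower, with 3 lower and 3 higher on average. None of those of oligodendrocytes, their precursors, microglia, endothelial cells or leptomeninges passed (medians 0.36, 0.35, -0.11, 0.10 and 0.88). No erythroid marker was tested, as Hba-a1 and Alas2 fell below the filter and Hbb-bs and Hbb-bt had no single-gene probe set. Striatum and ventricle lining lie next to the dissected cortex. In whole tissue, fewer cells of a type and less RNA per cell cannot be told apart, and the part of these marker differences in the values below was not tested.

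Kat2a and Kat2b acetylate histone H3 as the catalytic subunits of the SAGA and ATAC coactivator complexes. Kat2b, also known as PCAF, had the largest difference of the 10 genes on the probe sets that represent them. Its probe set 1434037_s_at measured 9.06, 9.20 and 9.09 log2 units in control mice 1, 5 and 9, and 9.47, 9.17 and 9.65 in ZnR mice 3, 7 and 11. ZnR mice 3 and 11 were above all controls, and ZnR mouse 7 was below control mouse 5. The mean was 9.11 ± 0.07 in controls and 9.43 ± 0.24 in ZnR mice (SD, n = 3), a difference of 0.31 ± 0.13 SE or 1.24-fold, with an interval of 0.01 to 0.62 and limma adjusted p = 0.28. Its second probe set measured nearly the same difference (0.31 ± 0.20 SE, adjusted p = 0.473), again with ZnR mice 3 and 11 (4.61 and 4.72) above ZnR mouse 7 (4.11), though control mouse 1 was at 4.48. This second probe set lay close to the filter, with control mouse 9 at 3.92, and its interval was -0.14 to 0.77. On the first probe set the size of the difference moved with the mouse left out, from 0.20 without ZnR mouse 11 to 0.44 without ZnR mouse 7. It stayed above 0 in all 6 such fits, with no call in any. The low-18S pair gave 0.41 and the other mice 0.26.

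Among the ZnR mice, Kat2b was highest in mouse 11, then in mouse 3, then in mouse 7. The list means of markers of oligodendrocytes, their precursors and endothelial cells had the same order. Every single oligodendrocyte marker tested had it too. Of the precursor markers only Olig1 had it, and Pdgfra, Olig2, Gpr17, Cspg4 and Sox10 did not. Pdgfra measured 9.78, 9.66 and 9.74 log2 units in ZnR mice 11, 3 and 7. Of the endothelial markers, Cldn5, Tek and Slco1a4 had the order, and Flt1, Pecam1 and Kdr did not. For oligodendrocytes, the mean of the 7 tested of 8 listed, centred on all mice, was highest in ZnR mouse 11 (0.53), then ZnR mouse 3 (0.19), with ZnR mouse 7 (-0.19) inside the control range of -0.22 to -0.14. All 7 had a higher mean in ZnR mice and none passed the test. The 6 precursor markers measured 0.29, 0.17 and 0.07 in ZnR mice 11, 3 and 7, against -0.21 to -0.14 in controls. The 6 endothelial markers measured 0.16, 0.10 and -0.08 in the same mice, against -0.13 to -0.02 in controls. No other tested marker list had this order in its means. From high to low, the cortical excitatory, choroid plexus and ependymal, leptomeningeal and astrocyte means ran in ZnR mice 11, 7 and 3. Striatal, general neuronal and microglial means ran in ZnR mice 3, 7 and 11, and the interneuron mean in 7, 11 and 3. Kat2b minus its control mean was 0.53, 0.36 and 0.05 in ZnR mice 11, 3 and 7. The part of RNA from any of these cell types in the Kat2b values was not tested.

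Kat2a, also known as GCN5, is the close relative of Kat2b. It measured 8.97, 9.05 and 8.89 in control mice 1, 5 and 9 and 9.23, 9.03 and 9.10 in ZnR mice 3, 7 and 11. ZnR mouse 3 was highest and ZnR mouse 7 lay among the controls. The difference was 0.15 ± 0.09 SE (interval -0.07 to 0.37, adjusted p = 0.47), and 0.26 within the low-18S pair against 0.10 between the other mice. It was 0.09 without ZnR mouse 3 and 0.08 with the 3 probe sets of the gene averaged. Its other probe sets measured 0.09 ± 0.15 SE (adjusted p = 0.822) and 0.00 ± 0.09 SE (adjusted p above 0.99), the last close to the filter at 4.82 to 5.04 log2 units in every mouse. Whether Kat2b and Kat2a differed from each other in their response was not tested.

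Crebbp and Ep300 encode large coactivators that bridge transcription factors and the transcription machinery. Crebbp was read by 4 probe sets, of which 2 were higher on average in ZnR mice and 2 lower. The probe set that represents the gene, 1436983_at, measured 10.68, 10.69 and 10.80 log2 units in control mice 1, 5 and 9 and 10.67, 10.70 and 10.57 in ZnR mice 3, 7 and 11. The diets overlapped, ZnR mouse 11 being the lowest of the 6. The means were 10.72 ± 0.07 and 10.64 ± 0.07 (SD, n = 3), a difference of -0.08 ± 0.08 SE with an interval of -0.27 to 0.12 and adjusted p = 0.699. It was -0.04 without ZnR mouse 11, and also without control mouse 9.

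A second Crebbp probe set, 1435224_at, with a narrower spread within diets, pointed the other way. It measured 10.61, 10.65 and 10.62 in control mice 1, 5 and 9 and 10.69, 10.73 and 10.73 in ZnR mice 3, 7 and 11. All ZnR mice were higher than all controls, by a small amount. The difference was 0.09 ± 0.08 SE (interval -0.09 to 0.27, adjusted p = 0.613), with 0.08 for the low-18S pair and 0.09 for the other mice. The third probe set measured 0.10 ± 0.10 SE (adjusted p = 0.696). The fourth was the most variable of all acetyltransferase probe sets, with 5.91 to 6.40 in controls and 6.81, 5.38 and 5.52 in ZnR mice 3, 7 and 11. Its difference of -0.28 ± 0.35 SE (adjusted p = 0.738) split into 0.55 for the low-18S pair and -0.70 for the other mice. The direction of Crebbp thus depends on the probe set, and no direction is given for the gene.

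Ep300 had 1 probe set, 1434765_at. It measured 9.44, 9.49 and 9.73 in control mice 1, 5 and 9 and 9.51, 9.76 and 9.54 in ZnR mice 3, 7 and 11. In each diet 1 mouse stood above the other two, control mouse 9 and ZnR mouse 7, and the diets overlapped. The difference was 0.05 ± 0.11 SE (interval -0.22 to 0.31, adjusted p = 0.88), and it was slightly below 0 without ZnR mouse 7 (-0.03) or control mouse 1 (-0.0081).

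**Figure D2:**
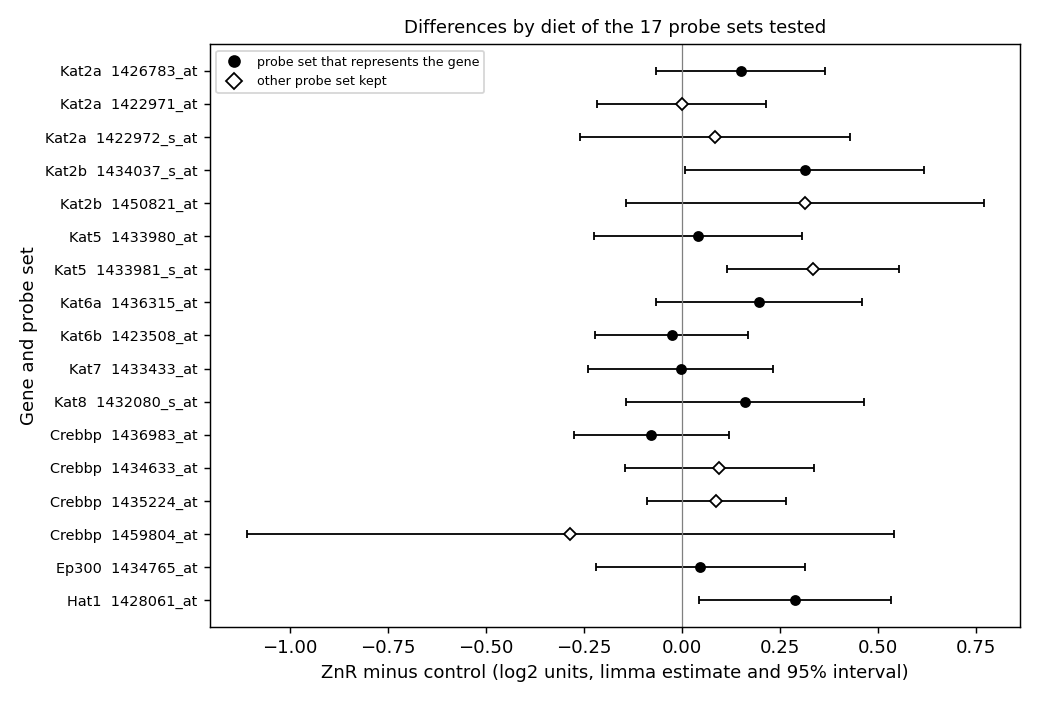
Difference ZnR minus control (x axis, log2 units) with its 95% interval for the 17 probe sets tested, 1 row each; filled circles mark the probe set that represents a gene and open diamonds its others. The intervals of Kat2b (the filled circle), Kat5 (the open diamond) and Hat1 do not reach 0 before adjustment, and the Crebbp probe sets lie on either side of 0.

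The MYST enzymes share a catalytic domain that holds a zinc finger, and work in separate complexes. Kat5, also known as TIP60, is the enzyme of the NuA4 complex and acts in transcription and DNA repair. Its probe sets disagreed. The probe set that represents the gene, 1433980_at, measured 8.86, 9.11 and 9.15 in control mice 1, 5 and 9 and 8.95, 9.09 and 9.21 in ZnR mice 3, 7 and 11, with the diets overlapping. Its difference was 0.04 ± 0.11 SE (interval -0.22 to 0.31, adjusted p = 0.895), and it was -0.05 without control mouse 1 and -0.02 without ZnR mouse 11.

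The second Kat5 probe set, 1433981_s_at, measured 7.19, 7.12 and 7.22 in control mice 1, 5 and 9 and 7.41, 7.49 and 7.65 in ZnR mice 3, 7 and 11. Every ZnR mouse was above every control. The means were 7.18 ± 0.05 and 7.52 ± 0.12 (SD, n = 3), a difference of 0.34 ± 0.09 SE or 1.26-fold, with an interval of 0.12 to 0.55 and adjusted p = 0.13, the smallest among the acetyltransferases. The low-18S pair gave 0.21 and the other mice 0.40. It passed under 1 of 14 alternatives, with arrays weighted by their quality (0.40, adjusted p = 0.0283), a fit in which all calls went from 373 to 2003 and which gave control mouse 5 a weight of 6.57 against 0.51 to 0.99 for the other mice. Adjusted p-values over the 14 ran from 0.0283 to 0.342. The suffix of its name marks a probe set that can match more than 1 transcript, and which Kat5 transcripts each probe set reads was not examined. The same suffix is on the probe sets that represent Kat2b and Kat8 and on the Kat2a probe set 1422972_s_at. Some partner genes below, Nasp and Zzz3 among them, were also read by such probe sets.

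Kat6a, also known as MOZ, and Kat6b, also known as MORF, are close relatives that acetylate histone H3 together with BRPF scaffold proteins. Kat6a measured 9.19, 9.22 and 8.92 in control mice 1, 5 and 9 and 9.43, 9.28 and 9.21 in ZnR mice 3, 7 and 11. Control mouse 9 was the lowest, and ZnR mouse 11 lay just below control mouse 5. The difference was 0.20 ± 0.11 SE (interval -0.07 to 0.46, adjusted p = 0.428), and it was 0.10 without control mouse 9. Kat6b measured 9.50, 9.54 and 9.58 in control mice 1, 5 and 9 and 9.43, 9.59 and 9.53 in ZnR mice 3, 7 and 11, the smallest spread of the 10 genes. Its difference was -0.03 ± 0.08 SE (interval -0.22 to 0.17, adjusted p = 0.916), and it was 0.02 without ZnR mouse 3. A difference between Kat6a and Kat6b was not tested.

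Kat7, also known as HBO1, acetylates histones at origins of replication and at genes. It measured 8.81, 8.59 and 8.51 in control mice 1, 5 and 9 and 8.59, 8.69 and 8.62 in ZnR mice 3, 7 and 11. The ZnR mice lay inside the range of the controls, and the difference was 0.00 ± 0.10 SE (interval -0.24 to 0.23, adjusted p = 0.994). The low-18S pair gave -0.22 and the other mice 0.10, and without control mouse 1 it was 0.08.

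Kat8, also known as MOF, acetylates histone H4 in the MSL and NSL complexes. It measured 6.69, 6.92 and 7.11 in control mice 1, 5 and 9 and 7.23, 7.02 and 6.96 in ZnR mice 3, 7 and 11. The diets overlapped, with control mouse 1 lowest and ZnR mouse 3 highest. These are the low-18S pair, and within it the difference was 0.54, against -0.03 between the other mice. Over all mice it was 0.16 ± 0.13 SE (interval -0.14 to 0.46, adjusted p = 0.59).

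**Figure D3:**
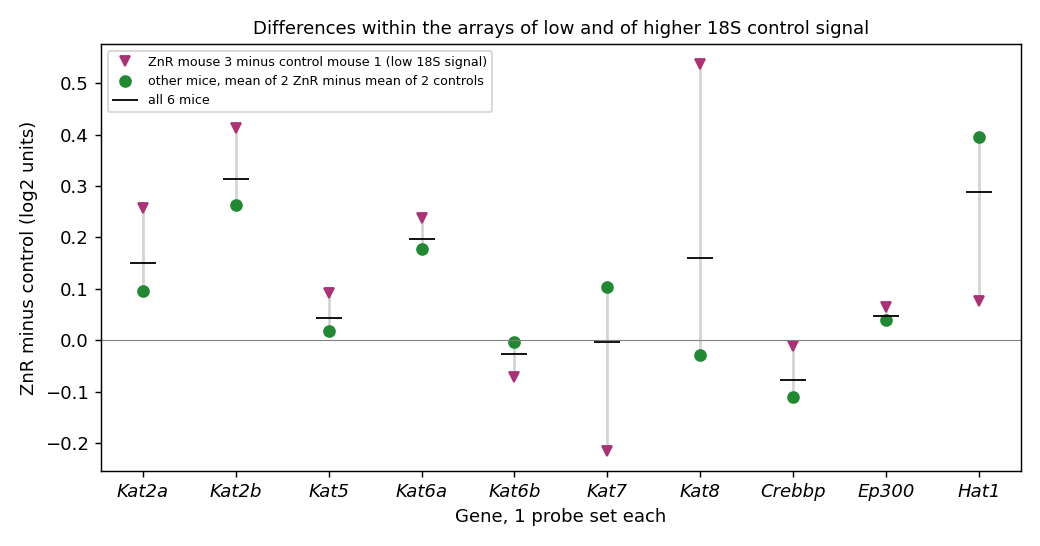
Difference ZnR minus control (y axis, log2 units) of each of the 10 genes within the pair of arrays with low 18S control signal (triangles), between the other 4 mice (circles) and over all 6 (bars). Kat7 and Kat8 lie on opposite sides of 0 in the 2 subsets, and the other 8 genes keep their side.

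Hat1 is the type B enzyme of the family, which acetylates new histone H4 with the chaperone RBBP7. Its probe set 1428061_at measured 8.26, 8.07 and 7.93 in control mice 1, 5 and 9 and 8.33, 8.45 and 8.34 in ZnR mice 3, 7 and 11. All ZnR mice were above all controls, control mouse 1 being close to the lowest of them. The means were 8.09 ± 0.16 and 8.37 ± 0.07 (SD, n = 3), a difference of 0.29 ± 0.10 SE or 1.22-fold, with an interval of 0.04 to 0.53 and adjusted p = 0.219. The low-18S pair gave 0.08 and the other mice 0.40. With control mouse 9 left out it was 0.21, the lowest of 6 such fits, and with control mouse 1 left out 0.37, the highest. Adjusted p-values over 15 alternatives ran from 0.0607 upward.

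On the probe sets that represent the genes, Hat1 had the smallest p, and the genes whose profile was most like its own were sought over the 6 mice. The measure was the mean absolute difference, in log2 units, between profiles centred on the control mean. The nearest were Rdh10 (0.0259), which encodes a retinol dehydrogenase, Ing5 (0.0365), Thsd4 (0.0396), H13 (0.0405) and Anp32b (0.0408). Ing5 encodes a subunit of acetyltransferase complexes and Anp32b a histone chaperone, and both are in the lists below. Because the 5 genes were picked for profiles near that of Hat1, differences near its own follow from the choice. The differences were 0.28 ± 0.10 SE (adjusted p = 0.196) for Ing5 and 0.29 ± 0.09 SE (adjusted p = 0.167) for Anp32b. Those of Rdh10, Thsd4 and H13 were 0.29, 0.22 and 0.31, and none of the 5 passed the test.

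The start sites of Hat1 and Kat5 are shown because these genes held the probe sets with the smallest p. RefSeq sequences of build GRCm38.p6 gave 13 promoters for 9 of the 10 genes, all but Kat6a. In the 250 bases before each start, the letters TGACGTCA (the cAMP response element bound by CREB), GGGCGG (the GC box) and CCAAT (the CCAAT box) were searched on both strands, and no motif overlaps another in the sequences printed. The Hat1 window lies at chr2:71389010-71389259 on the plus strand and the Kat5 window, before its upstream start, at chr19:5610095-5610344 on the minus strand. Both are written 5′ to 3′ on the gene's strand with motif matches in capitals:
Hat1: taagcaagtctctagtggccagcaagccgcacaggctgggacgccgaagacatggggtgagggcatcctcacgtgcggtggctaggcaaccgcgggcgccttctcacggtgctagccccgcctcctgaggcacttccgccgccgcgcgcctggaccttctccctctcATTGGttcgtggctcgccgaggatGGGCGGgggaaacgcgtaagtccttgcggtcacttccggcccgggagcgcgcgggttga
Kat5: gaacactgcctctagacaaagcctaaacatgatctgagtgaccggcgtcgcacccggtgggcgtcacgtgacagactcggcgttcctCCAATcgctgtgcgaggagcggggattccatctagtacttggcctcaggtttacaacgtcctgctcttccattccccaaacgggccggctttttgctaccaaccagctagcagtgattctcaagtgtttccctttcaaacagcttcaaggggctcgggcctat

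The Hat1 window held 1 GC box and 1 CCAAT box, the latter on the other strand, and the Kat5 window 1 CCAAT box. The Kat5 window printed held no GC box, but a window before another start of Kat5 did. The GC box was found in 8 of the 13 acetyltransferase promoters (6 genes) and in 32.7% of 32851 promoters of all genes. The CCAAT box was found in 6 of 13 (5 genes) and in 33.8% of all. The full cAMP response element was in 0 of 13 and in 1.55% of all. Several genes have more than 1 start, whose windows can overlap, and a match is a description of letters.

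The genes that act with the acetyltransferases did not pass the test either. In 10 lists with 143 genes, 128 were tested, and none had an adjusted p under 0.05 in limma, against 1.92% of all genes. At an unadjusted p under 0.05 there were 15 of 128, against 18.8% of all genes. All ZnR mice were above all controls for 17 and below them for 12, against 16.5% and 11.1% of all genes. The median difference over the 128 was 0.02 log2 units. Leading members of each list follow with their differences, none past the threshold.

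Among subunits of the complexes, the 22 tested of SAGA and ATAC, which carry Kat2a and Kat2b, had a median of 0.07. Atxn7l3, of the deubiquitinating module, measured -0.26 ± 0.09 SE (adjusted p = 0.199), Dr1 -0.23 and Zzz3 -0.31. The 15 tested of the NuA4 complex, which carries Kat5, had a median of 0.07, with 11 higher on average and 4 lower. The helicase-like gene Ruvbl2 measured 0.33 ± 0.11 SE (adjusted p = 0.171), the bromodomain gene Brd8 0.29 and Epc1 0.16, each with all ZnR mice above all controls. Among 8 partners of Kat6a, Kat6b and Kat7 (median -0.05), differences had either sign, with Ing5 higher as given above, the scaffold gene Brpf1 at -0.23 ± 0.09 SE (adjusted p = 0.255) and Jade1 at 0.18 ± 0.08 SE (adjusted p = 0.292). The 10 MSL and NSL subunits, which carry Kat8, had a median of 0.02, with Msl3 at -0.17, Kansl3 at 0.14 and Ogt, which adds N-acetylglucosamine to proteins, at 0.10.

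Partners of Hat1 were few. Of 7 histone chaperone genes 4 were tested, with a median of 0.15. Nasp, which holds free histones, measured 0.32 ± 0.14 SE (adjusted p = 0.296), and 0.69 within the low-18S pair against 0.14 between the other mice. Asf1a measured 0.22, Rbbp4 0.08 and Rbbp7 -0.04.

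Among 16 partners of CBP and p300 (median -0.02), the largest differences were of opposite sign. Atf4, a transcription factor of the stress response, measured 10.03, 9.81 and 10.04 in control mice 1, 5 and 9 and 9.31, 9.71 and 9.39 in ZnR mice 3, 7 and 11. Every ZnR mouse was lower, and the difference was -0.49 ± 0.13 SE (adjusted p = 0.115). Of the alternatives, it passed with a trended, robust variance prior alone (adjusted p = 0.0483). Cited1, which binds CBP and p300, measured 4.03 to 4.38 in controls and 4.53 to 4.58 in ZnR mice, near the filter, with a difference of 0.39 ± 0.11 SE (adjusted p = 0.133). Tcf4 measured -0.20.

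The remaining lists describe other enzymes, inhibitors, readers and the supply of acetyl-CoA. The 17 other acetyltransferases had a median of -0.03, led by the cohesin acetyltransferase gene Esco1 (-0.27 ± 0.09 SE, adjusted p = 0.187), Mcm3ap (0.21) and Kat14 of the ATAC complex (-0.23). Of 6 inhibitors of acetylation (median -0.05), Anp32b was followed by Eid1 (-0.18) and Anp32a (-0.14). Among 17 readers of acetyl-lysine (median 0.06), Brd3, a bromodomain protein of the BET family, measured 8.56, 8.64 and 8.67 in control mice 1, 5 and 9 and 8.99, 8.96 and 8.89 in ZnR mice 3, 7 and 11. All ZnR mice were higher, by 0.33 ± 0.08 SE with adjusted p = 0.103, the smallest of the 128 genes. Brd9 measured -0.24 and Dpf1 -0.28. Of 13 genes of acetyl-CoA supply (median 0.06), Acss1, which makes acetyl-CoA from acetate in mitochondria, measured 0.32 ± 0.09 SE (adjusted p = 0.144). Acss2, the nuclear and cytosolic relative of Acss1, measured -0.17, and Acat1 0.12. With array weights Ruvbl2, Cited1 and Brd3 passed (adjusted p from 0.0245 to 0.0497).

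**Figure D4:**
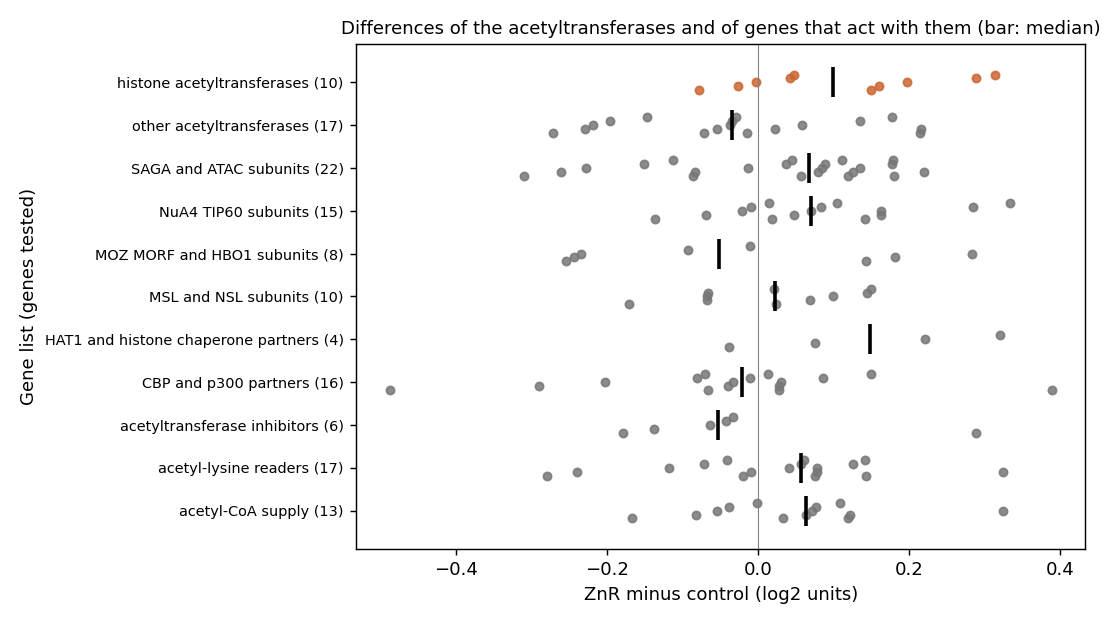
Difference ZnR minus control (x axis, log2 units) of each gene tested in the acetyltransferase list and the 10 lists of genes that act with it, 1 point per gene and a bar at each median. The medians lie between -0.05 and 0.15, and genes lie on either side of 0 in every list.

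The 7 probe sets that did not pass the filter read Kat2b (1), Kat6a (2), Kat6b (2) and Kat7 (2), and lay between 2.20 and 4.09 log2 units in every mouse. They were not tested. Of these, the ZnR mice lay below the controls on 1 probe set of Kat6a (3.62 to 3.78 against 3.84 to 3.97) and above them on 1 of Kat7 (3.99 to 4.05 against 3.89 to 3.97), values at which background-corrected signals are compressed.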

How the data were processed

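Total RNA (500 ng per mouse) was labelled with the 3′ IVT Express kit and read on Mouse430_2 arrays, per the labels' protocols. The authors deposited log2 expression per probe set, with a column for each mouse. Per the submitters' processing notes, GCRMA 2.28.0 and R 2.15.1 were used. GCRMA corrects background and normalizes between arrays, so a change in total RNA cannot be seen.

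Probe sets above 4 log2 units on at least 3 of 6 arrays were kept, without the 64 array controls, which left 25381. The diets were compared with limma 3.58.1 in R 4.3.3 (lmFit, eBayes, 2-sided, no covariate), and p-values were adjusted by Benjamini-Hochberg over every kept probe set, with a threshold of 0.05. The test was tested on simulated data. SE are moderated. A fold is 2 raised to the size of the log2 difference.

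Symbols came from the platform annotation, updated by Entrez identifier through a GRCm38.p6 gene table (34741 of 34945 single-gene probe sets). The acetyltransferase genes, the lists and the possible 18S batch were chosen with earlier results of these data known. Named were all 10 genes, the 3 genes of each partner list with the smallest p and the 5 nearest profiles to the gene whose representative probe set had the smallest p. Alternatives changed the filter, normalization, variance prior, array weights, probe set rule, 18S block and each mouse. Tables and plots used Python 3.11.15, pandas 2.3.3 and matplotlib 3.10.9.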

Additional observations from a re-analysis of the deposited data

How the results depend on the processing

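No acetyltransferase probe set was called in the main fit or under 13 of 14 alternatives, and 1 (the second Kat5 probe set) with array weights. Partner list genes called went from 0 to 1 with the trended, robust prior and to 3 with array weights. The median of the 10 genes, 0.0989, was 0.0675 without the low-18S pair, 0.12 with all kept probe sets of a gene averaged, and 0.0678 to 0.123 with each mouse left out. Calls over all probe sets went from 373 to 904 with the trended, robust prior, 2003 with array weights, 1 without the low-18S pair, and 1 to 109 with each mouse left out. Of 150 fits of single genes, 138 kept their direction and side of the threshold and 12 changed direction. These were Kat5 (-0.0028) and Kat7 (0.031) with array weights, Kat7 (0.10) and Kat8 (-0.0279) without the low-18S pair, and fits that left out a mouse, over which Ep300 ran from -0.0302 to 0.135, Kat5 from -0.0483 to 0.109, Kat6b from -0.0624 to 0.0173 and Kat7 from -0.0669 to 0.0838. Their causes were not tested. Averaging the probe sets of a gene gives no count of probe sets. Mouse numbers differ between the diets and pair no mice. A block for the low-18S arrays gave 550 called probe sets, none of them of an acetyltransferase.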
